A study of Mus musculus with 14 samples.

Results

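The MHC class II genes described here are the chains of the classical class II molecules (H2-Aa, H2-Ab1, H2-Eb1, H2-Eb2), the invariant chain (Cd74), the chains of the peptide editor H2-DM (H2-DMa, H2-DMb1) and of its inhibitor H2-DO (H2-Oa, H2-Ob), and the transactivator Ciita. They were chosen by name and function, as 10 of the 21205 genes of the table (whose columns write H2.Aa, H2.Ab1, H2.Eb1, H2.Eb2, H2.DMa, H2.DMb1, H2.Oa and H2.Ob), and all 10 were measured. They were followed in sorted tumour cDC1, the conventional dendritic cells that cross-present antigen, by genotype, by detection of the maturation gene Ccr7 and by the surface MHCII protein recorded at the sort.

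The tumours were YUMM1.7 melanomas, injected subcutaneously into female mice, and each of the 14 plates held single cells of 1 tumour of 1 mouse. The groups were Irf1_dXCR1 (5 plates, 223 cells), Irf1_FF (4 plates, 165 cells), Ikbkb_dXCR1 (4 plates, 133 cells) and Ikbkb_FF (1 plate, 34 cells), and the series names the FF groups as controls. The labels do not spell out the alleles behind these names. Mouse age was recorded as 6 weeks in both Irf1 groups, 8 weeks in Ikbkb_FF, 8 weeks in Ikbkb_dXCR1 replicates 1 and 2, and 6 weeks in its replicates 3 and 4. The Irf1 and Ikbkb plates were separate experiments, so the gene studied and the experiment cannot be told apart. UMI counts (unique molecular identifiers, which mark each captured transcript at its 5′ end) were summed over the cells of a plate, and a level is given as CPM, UMIs per 1000000 UMIs of that plate's cells.

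Class II molecules display peptides from the endosome to CD4+ T cells. Their chains assemble with the invariant chain, which blocks the groove until proteases trim it, after which H2-DM exchanges the remaining fragment for peptide and H2-DO restrains H2-DM. Ciita, recruited to a shared promoter module of X and Y elements, drives the transcription of these genes, and maturing dendritic cells are known to shut down its expression while they keep class II protein longer at the surface.

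By position (GRCm38), 8 members lie in the class II region of chromosome 17: H2-Oa at chr17:34092340-34095234, H2-DMa at chr17:34119541-34139101, H2-DMb1 at chr17:34153072-34160230, H2-Ob at chr17:34238903-34254414, H2-Ab1 at chr17:34257689-34269419, H2-Eb1 at chr17:34305867-34316674 and H2-Eb2 at chr17:34325665-34341412 on the plus strand, and H2-Aa at chr17:34282744-34287823 on the minus strand. Ciita lies at chr16:10480059-10528418 on the plus strand. A RefSeq promoter (GRCm38.p6, 250 bases before to 50 after the start) was at hand for 7 members. An X-like element, CNNGNAAC, followed after 15 to 35 bases by a Y-like element, GATTGG, stood in 6 of these 7. The promoters listed for H2-DMa, chr17:34122582-34122881 and chr17:34125268-34125567, did not hold it. Both lie inside the span given above for H2-DMa, and the start of that span was not covered. Both strands were searched, and the letters and the spacing were chosen after these promoters had been read. The pair was held by 84 of all 32851 promoters in that set, or 0.256%; CNNGNAAC alone was in 39.1% and GATTGG alone in 16.1%. The elements are shown because the 6 genes share them, on the strand of the gene, with the 2 motifs in capitals. A match in these letters is a description of the sequence and does not show that a factor binds there.
H2-Aa, minus strand, chr17:34287867-34287907: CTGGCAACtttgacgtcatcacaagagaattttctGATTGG
H2-Eb1, plus strand, chr17:34305773-34305812: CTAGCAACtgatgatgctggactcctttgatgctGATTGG
H2-Eb2, plus strand, chr17:34325540-34325579: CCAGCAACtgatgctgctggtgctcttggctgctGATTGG
H2-DMb1, plus strand, chr17:34153094-34153134: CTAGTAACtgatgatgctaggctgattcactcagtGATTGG
H2-Oa, plus strand, chr17:34092300-34092340: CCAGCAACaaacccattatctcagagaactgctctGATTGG
H2-Ob, plus strand, chr17:34238815-34238852: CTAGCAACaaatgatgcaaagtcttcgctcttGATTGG

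Plates held 18 to 59 cells, and a cell had a median of 143476 UMIs and 1578 genes. No cell name was shared between plates. Cells with 1 or more Ccr7 UMI are called Ccr7+ (170 cells). The 385 Ccr7- cells were divided by the number of detected genes among 8 cDC1 markers (Xcr1, Clec9a, Cadm1, Naaa, Wdfy4, Tlr3, Itgae, Irf8): 229 cells with at least 3 are the Ccr7- cDC1-marker cells, and 156 with fewer are the other Ccr7- cells. The first of these sets had a summed cDC1-marker level of 4911 to 6968 CPM over plates, which its definition fixes and which is therefore no check of the cDC1 label. Its macrophage markers summed to 73.2 to 1990 CPM, its plasmacytoid dendritic cell markers to 116 to 838 CPM and its B cell markers to 37.2 to 508 CPM. Among the B cell markers Ighm had 13658 UMIs in this set, Igkc 97, Ms4a1 39, Cd79a 1 and Cd79b 0. Among the plasmacytoid markers Bst2 had 18228 UMIs, Tcf4 3655, Ccr9 82 and Siglech 52. Both sums rested mostly on a single gene and do not by themselves show these cell types. The other Ccr7- cells had 162 to 1598 CPM of cDC1 markers beside 0 to 8359 CPM of 8 macrophage markers and 320 to 19137 CPM of 5 fibroblast markers, and 1062 to 3109 CPM of mature dendritic cell markers. Most UMIs of the mature markers there were of Cd63 (36257), with 2700 of Cacnb3, 1489 of Ccl22, 1133 of Socs2, 1112 of Fscn1 and 821 of Relb. Ccr7+ cells had 4346 to 14172 CPM of 8 mature dendritic cell markers, Ccr7 among them, against 0.490 to 628 CPM in Ccr7- cDC1-marker cells, and a cDC1-marker sum of 1187 to 3817 CPM. Their macrophage markers summed to 0 to 1576 CPM, fibroblast markers to 0 to 3299 CPM and T cell markers to 0 to 1051 CPM, highest in Ikbkb_FF. Among the 170 Ccr7+ cells, 32 had 0 of the 8 cDC1 markers and 74 had 1. Unlike the Ccr7- cDC1-marker cells, they were not gated on these markers. The part of this in the differences below was not tested. The 5′ counts of Irf1 averaged 223 ± 105 CPM in Irf1_dXCR1 plates and 343 ± 102 CPM in Irf1_FF plates (SD, n = 5 and 4; log2 fold change -0.59, edgeR adjusted p = 0.685), and Ikbkb had a log2 fold change of -0.28 (adjusted p = 1). Whether these 5′ counts fall in a deleted part of either gene is not stated, so they do not check the labels.

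Over all cells of a plate, no class II gene passed the test between Irf1_dXCR1 and Irf1_FF. The I-A β chain H2-Ab1 had 4661, 4886, 4402, 4427 and 2669 CPM in the Irf1_dXCR1 plates, against 2570, 3116, 3176 and 3867 CPM in the Irf1_FF plates. In 4 of the 5 Irf1_dXCR1 plates the level lay above every Irf1_FF plate, and the remaining plate lay near the bottom of the Irf1_FF range. The log2 fold change was 0.43 ± 0.20 (SE), with an unadjusted p of 0.0502 and an adjusted p of 0.519 in edgeR's quasi-likelihood test with Benjamini-Hochberg adjustment over 16203 genes. A sum over all cells of a plate mixes the make-up of the plate with the RNA level of its cells. Levels in separate cell sets are given below.

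The other abundant classical chains and the invariant chain differed by less. H2-Aa, the I-A α chain, averaged 3945 ± 572 CPM in Irf1_dXCR1 and 3302 ± 775 CPM in Irf1_FF plates (log2 fold change 0.28). H2-Eb1, the I-E β chain, averaged 3355 ± 494 CPM in Irf1_dXCR1 and 2903 ± 624 CPM in Irf1_FF plates (0.24). Cd74 averaged 4657 ± 768 CPM in Irf1_dXCR1 and 3788 ± 780 CPM in Irf1_FF plates (0.33, adjusted p = 0.547). The groups overlapped for each of these genes. H2-Eb2, a neighbour of H2-Eb1 that encodes a further β chain, was detected in 1 to 5 cells of each Irf1_dXCR1 plate, at 34.6, 44.3, 29.1, 21.5 and 40.9 CPM, against 0, 23.5, 0.421 and 21.3 CPM in the Irf1_FF plates. These levels rest on 30 cells with any H2-Eb2 UMI among all 555.

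Among the peptide editors, H2-DMa averaged 1132 ± 103 CPM in Irf1_dXCR1 and 1079 ± 164 CPM in Irf1_FF plates, and H2-DMb1 averaged 1169 ± 202 CPM in Irf1_dXCR1 and 1028 ± 95.5 CPM in Irf1_FF plates. H2-DMb1 has a near-identical neighbour, H2-DMb2, with which its reads may have been exchanged, so its level is uncertain. The H2-DO chains had fold changes of opposite sign, and neither passed. H2-Oa had 78.9 ± 27.8 CPM in Irf1_dXCR1 and 126 ± 54.9 CPM in Irf1_FF plates, while H2-Ob had 346 ± 99.8 CPM in Irf1_dXCR1 and 307 ± 103 CPM in Irf1_FF plates. Ciita averaged 251 ± 37.7 CPM in Irf1_dXCR1 and 209 ± 56.3 CPM in Irf1_FF plates. In all, 0 of 10 members were called by edgeR, where it called 0% of all genes and 1272 genes but no member had an unadjusted p under 0.05, and DESeq2 called 0 members and 0.617% of genes. Of the 10 fold changes 9 were positive, with a median log2 fold change of 0.26, against -0.00 over all tested genes. Fibroblast markers summed to 231 to 4195 CPM in Irf1_dXCR1 plates and 131 to 6724 CPM in Irf1_FF plates, and their part in these levels was not tested.

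The Ikbkb groups allowed only a comparison with 1 control plate, which was assumed to vary like the other groups. H2-Aa averaged 4080 ± 1011 CPM in Ikbkb_dXCR1 plates (SD, n = 4), against 4026 CPM in the Ikbkb_FF plate. H2-Ab1 averaged 4212 ± 1105 CPM in Ikbkb_dXCR1, against 4472 CPM in Ikbkb_FF, and Cd74 averaged 4244 ± 795 CPM in Ikbkb_dXCR1, against 4572 CPM in Ikbkb_FF. For all 3 genes the control plate lay inside the range of the Ikbkb_dXCR1 plates. H2-DMa averaged 1519 ± 488 CPM in Ikbkb_dXCR1, against 1656 CPM in Ikbkb_FF. Ciita averaged 263 ± 108 CPM in Ikbkb_dXCR1, against 172 CPM in Ikbkb_FF. Of the members 0 of 10 passed, where edgeR called 0% of all genes, 707 had an unadjusted p under 0.05, and DESeq2 called 7.28% of genes and no member. H2-Eb1 and H2-DMb1 had log2 fold changes of -0.02 and -0.04, H2-Oa -0.78 and H2-Ob -0.39, each with an adjusted p of 1. H2-Eb2 had 0 to 38.1 CPM in Ikbkb_dXCR1 plates, against 1 UMI in the Ikbkb_FF plate. The median log2 fold change of the members was -0.04.

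**Figure D1:**
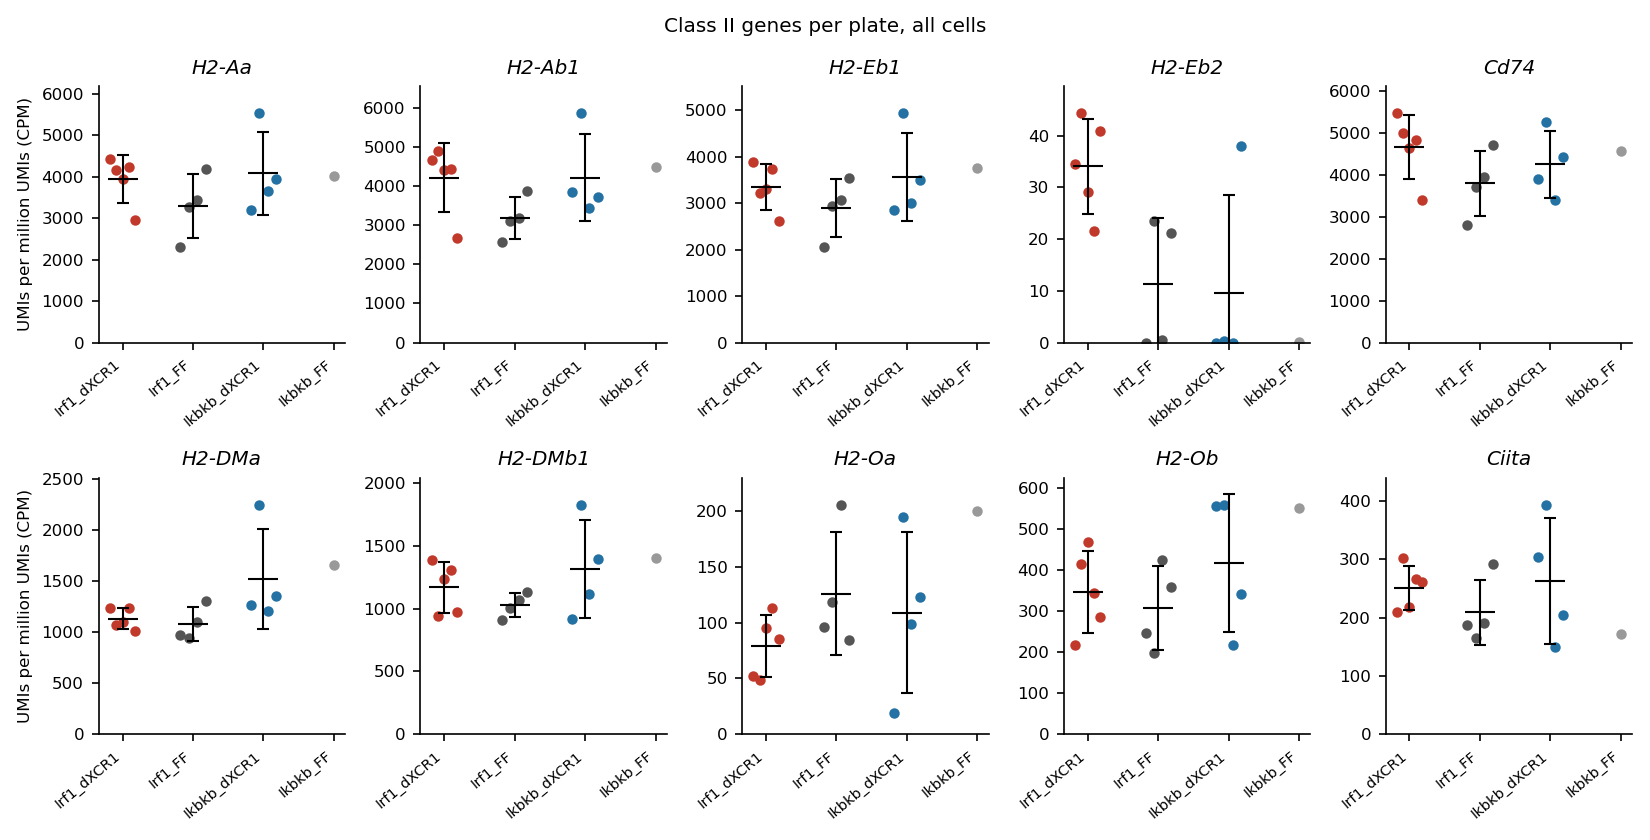
Levels of the 10 class II genes over all cells of each plate, in UMIs per 1000000 UMIs (CPM, linear axis from 0). Points are plates, and bars show the mean ± SD of the plates of a genotype; Ikbkb_FF has 1 plate. For H2-Ab1, 4 of 5 Irf1_dXCR1 plates lie between 4402 and 4886 CPM, above the highest Irf1_FF plate at 3867 CPM.

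Ccr7+ cells were set against Ccr7- cDC1-marker cells of the same plate, over 13 plates with at least 5 cells of each. The chains of the H2-DM editor were lower in Ccr7+ cells of every plate. H2-DMa had a lowest, median and highest level of 0.782, 767 and 982 CPM in Ccr7+ cells, against 1066, 1792 and 2048 CPM in Ccr7- cDC1-marker cells. H2-DMb1 had 0, 632 and 1001 CPM in Ccr7+ cells, against 1063, 1767 and 2079 CPM in Ccr7- cDC1-marker cells. For both genes the ranges of the sets did not overlap. The share of all genes without such overlap, or lower in every plate, was not counted, so both statements only describe these genes. In this comparison edgeR called 5.45% of 5561 genes, 2.43% lower, and the median log2 fold change of all tested genes was -0.71. The log2 fold changes were -1.41 ± 0.47 for H2-DMa and -1.57 ± 0.51 for H2-DMb1, yet neither passed with all plates (edgeR adjusted p = 0.0917 and 0.0805, with the plate as a block).

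One plate decided those calls. In Irf1_dXCR1 replicate 3, with 7 Ccr7+ cells, H2-DMb1 had no UMI (3 counts would be 2.35 CPM) and H2-DMa had 0.782 CPM. Without this plate H2-DMa and H2-DMb1 were called lower in Ccr7+ cells, with log2 fold changes of -1.10 (adjusted p = 3.79e-05) and -1.26 (adjusted p = 2.3e-05), in a fit that called 1.4% of all genes lower. With any other plate left out neither was called, with edgeR adjusted p up to 0.153 for H2-DMa and 0.136 for H2-DMb1. H2-DMa was lower in 9 of 9 plates of the Irf1 experiment and 4 of 4 of the Ikbkb experiment, as was H2-DMb1. The share of cells with an H2-DMa UMI was 49.4% in Ccr7+ cells (84 of 170, exact 95% interval 41.7% to 57.2%) and 94.8% in Ccr7- cDC1-marker cells (217 of 229, 91.0% to 97.3%). At an equal depth of 30000 UMIs per cell, which left out 18 of the 170 Ccr7+ and 7 of the 229 Ccr7- cDC1-marker cells, the shares were 43.4% in Ccr7+ and 95.5% in Ccr7- cDC1-marker cells. For H2-DMb1 they were 34.2% in Ccr7+ and 91.9% in Ccr7- cDC1-marker cells at that depth. In the other Ccr7- cells H2-DMa was detected in 39.1%, at a median depth of 86066.5 UMIs per cell, against 132930 in Ccr7+ and 171545 in Ccr7- cDC1-marker cells. The intervals cover counting error only.

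Of the classical chains, H2-Ab1 was called lower in Ccr7+ cells, and the others were not. H2-Ab1 had a lowest, median and highest level of 2459, 3067 and 5946 CPM in Ccr7+ cells, against 3330, 4118 and 5443 CPM in Ccr7- cDC1-marker cells. It was lower in Ccr7+ cells of 12 of 13 plates, although the ranges overlapped, with a log2 fold change of -0.37 ± 0.10 (adjusted p = 0.0458). H2-Aa, its partner in I-A, had 2851, 3872 and 6842 CPM in Ccr7+ cells, against 3153, 4035 and 4886 CPM in Ccr7- cDC1-marker cells, and was lower in 6 of 13 plates (log2 fold change 0.07, adjusted p = 0.782). H2-Eb1 was lower in 8 of 13 plates (-0.18, adjusted p = 0.435) and Cd74 in 6 of 13 (0.10, adjusted p = 0.628). Cd74, which lies at chr18:60803848-60812652 on the plus strand, had a UMI in 100% of the cells of both sets. The call of H2-Ab1 was fragile: it was lost when any of 11 of the 13 plates was left out, with adjusted p from 0.00752 to 0.203 and log2 fold changes from -0.40 to -0.27.

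The H2-DO chains and Ciita were lower as well in most plates. H2-Ob had a lowest, median and highest level of 86.4, 236 and 597 CPM in Ccr7+ cells, against 340, 476 and 691 CPM in Ccr7- cDC1-marker cells. It was lower in 11 of 13 plates and was called (log2 fold change -0.98 ± 0.26, adjusted p = 0.0326), a call lost when any of 9 plates was left out (adjusted p from 0.0123 to 0.0825). H2-Oa was lower in 12 of 13 plates, at 0, 41.7 and 110.3 CPM in Ccr7+ cells, against 27.4, 171 and 506 CPM in Ccr7- cDC1-marker cells (adjusted p = 0.173). Ciita was lower in 11 of 13 plates, at 0, 107 and 361 CPM in Ccr7+ cells, against 126, 359 and 491 CPM in Ccr7- cDC1-marker cells (adjusted p = 0.227). A Ciita UMI was found in 16.5% of Ccr7+ cells and 56.3% of Ccr7- cDC1-marker cells, and at equal depth in 17.8% of Ccr7+ and 54.5% of Ccr7- cDC1-marker cells.

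H2-Eb2 was higher in Ccr7+ cells of 9 of 13 plates and lower in 1, at a lowest, median and highest level of 0, 72.2 and 265 CPM in Ccr7+ cells, against 0, 0 and 14.3 CPM in Ccr7- cDC1-marker cells. Its UMIs came from 25 of 170 Ccr7+ cells, 5 of 229 Ccr7- cDC1-marker cells and 0 of 156 other Ccr7- cells. The filter on low counts left it out of the test, so the difference has no p here.

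In all, 2 of the 9 members tested, H2-Ab1 and H2-Ob, were called in this comparison, both lower, against the 2.43% of all genes called lower. A further 4 members had an unadjusted p under 0.05, where 1135 of all 5561 genes tested did. DESeq2 called 6 members lower (H2-Ab1, H2-DMa, H2-DMb1, H2-Oa, H2-Ob and Ciita), where it called 32.5% of genes and 24.9% lower. The median log2 fold change of the tested members was -0.98 and that of all tested genes -0.71, and the value of H2-Ab1 lies above that all-gene median. Set against all Ccr7- cells, the other Ccr7- cells included, none of the 9 passed in edgeR, where 6.88% of genes were called, 4.14% lower. There 7 members had an unadjusted p under 0.05, where 1506 of all 6308 genes tested did. DESeq2 called 6 members lower, where it called 38% of genes and 32.1% lower. In edgeR H2-Ab1 had a log2 fold change of -0.25 (adjusted p = 0.115), H2-Aa 0.23 (0.178), H2-DMa -1.13 (0.149) and H2-DMb1 -1.31 (0.126).

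**Figure D2:**
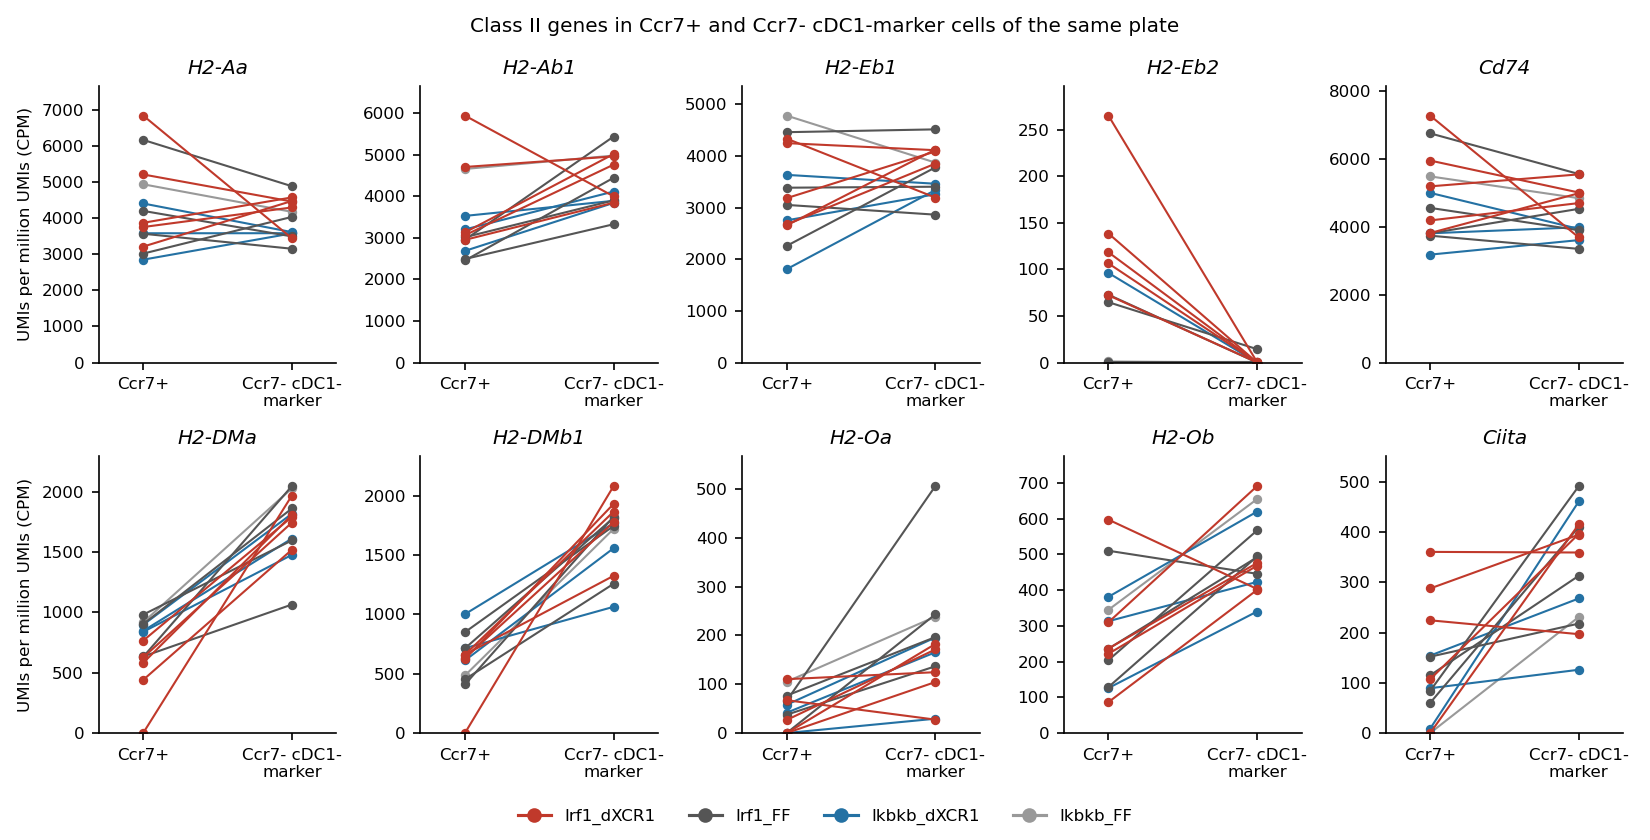
Levels of the 10 genes in Ccr7+ cells (left) and Ccr7- cDC1-marker cells (right) of the same plate, in UMIs per 1000000 UMIs (CPM, linear axes from 0); each line is 1 of 13 plates, coloured by genotype. All 13 lines of H2-DMa and H2-DMb1 are lower at the Ccr7+ end, while those of H2-Aa and Cd74 run in both directions.

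More members, and more of all genes, were called lower under stricter definitions of Ccr7+ cells. Of the 170 Ccr7+ cells, 31 had a single Ccr7 UMI, 134 had at least 10, and 94 also had a UMI of Fscn1, the actin-bundling gene of mature dendritic cells. With at least 10 Ccr7 UMIs (129 cells against 197 Ccr7- cDC1-marker cells in 12 plates), 5 members were called lower, where 9.08% of genes were: H2-Ab1 (log2 fold change -0.54, adjusted p = 0.00236), H2-DMa (-2.26, 0.0108), H2-DMb1 (-3.26, 0.0264), H2-Ob (-1.27, 0.0087) and H2-Oa (0.0165). The median level of H2-DMa was 375 CPM in these Ccr7+ cells, against 1800 CPM in Ccr7- cDC1-marker cells, and it was lower in 12 of 12 plates.

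With Ccr7 and Fscn1 both detected, against Ccr7- cDC1-marker cells with neither (83 and 142 cells, 9 plates), 7 members were called lower, where 9.26% of genes were. H2-Ab1 had a median of 2258 CPM in these mature cells, against 3898 CPM in the cells with neither gene, and was lower in 9 of 9 plates (log2 fold change -1.07, adjusted p = 5.8e-05). H2-Eb1 was also called lower (-0.55, 0.0103), as was H2-DMa, with a median of 242 CPM in mature cells, against 1792 CPM in the cells with neither gene (-4.00, 0.0131). The lowest plate of H2-DMa had 0.879 CPM in mature cells, and 0.782 CPM with at least 10 Ccr7 UMIs. Its fitted fold changes depend on how such levels near 0 are treated. The plate means of H2-DMa were 229 CPM in mature cells and 1717 CPM in the cells with neither gene. H2-DMb1 had a median of 160 CPM in mature cells, against 1816 CPM in the cells with neither gene (-4.40, 0.00789). Since H2-DMb1 had no UMI in 2 of these 9 plates in mature cells, and in 2 of the 12 plates with at least 10 Ccr7 UMIs, its fitted fold changes depend on how such zeros are treated; its plate means were 131 CPM in mature cells and 1769 CPM in the cells with neither gene. H2-Ob had 124 CPM in mature cells, against 476 CPM in the cells with neither gene (-2.60, 0.0278). It had no UMI in 1 of the 9 plates in mature cells, so the same limit holds. Its plate means were 113 CPM in mature cells and 481 CPM in the cells with neither gene. Ciita was at 0 in 6 of the 9 plates in mature cells and had a median of 321 CPM in the cells with neither gene (adjusted p = 0.01), and H2-Oa was at 0 in 7 of the 9 (0.00224). Since most plates were at 0 for Ciita and H2-Oa, their fitted fold changes are not given. H2-Aa and Cd74 were not called under any of these definitions.

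**Figure D3:**
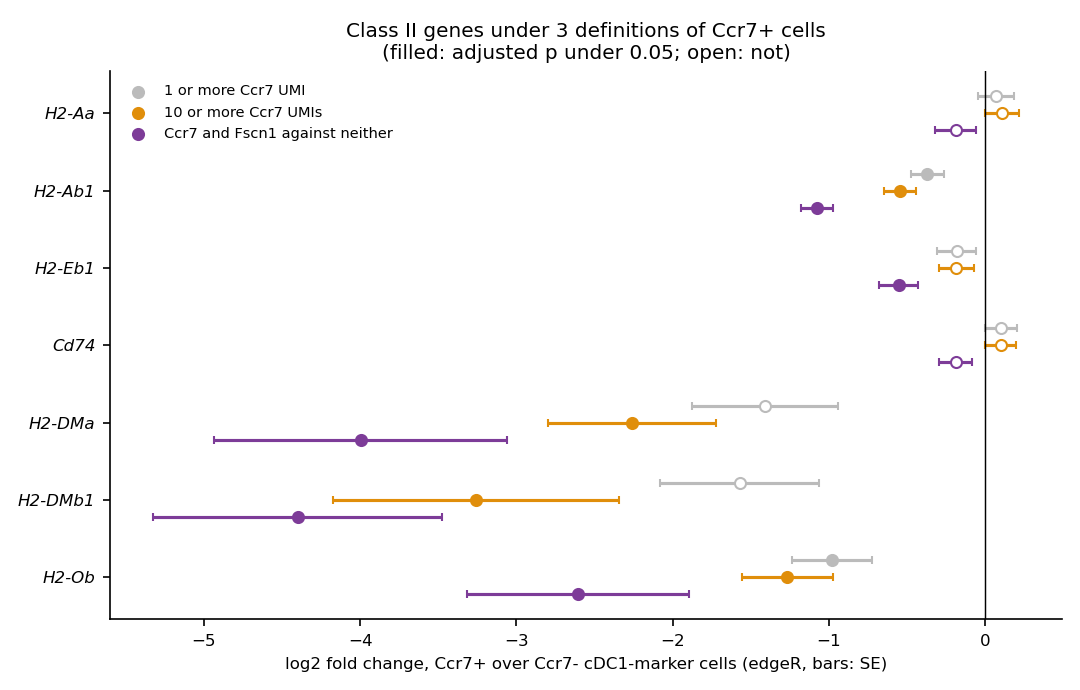
Fitted log2 fold changes (edgeR) of 7 class II genes in Ccr7+ over Ccr7- cDC1-marker cells, under 3 definitions of Ccr7+ cells; bars are ± SE, filled points have an adjusted p under 0.05. H2-DMa lies at -1.41, -2.26 and -4.00 from the loosest to the strictest definition. Its lowest plate has 0.782, 0.782 and 0.879 CPM in Ccr7+ cells, and the fitted values depend on how such levels are treated. H2-Aa and Cd74 are not called under any of the 3, and their counts lie near the cap of the UMI.

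A limit on the most abundant members is the UMI itself, since its 5 bases cap the number of different UMIs per gene and cell. H2-Ab1 had a median of 476 UMIs per cell in Ccr7+ cells and 946 in Ccr7- cDC1-marker cells, of which 59.0% had over 921, close to that cap; the share was the same for Cd74. With counts corrected for UMI collisions, H2-Ab1 in Ccr7+ against all Ccr7- cells had a log2 fold change of -0.55 (adjusted p = 0.00901), where 4.5% of genes were called lower. The same correction gave H2-Aa 0.04 in place of 0.23 there, and Cd74 -0.06. Against Ccr7- cDC1-marker cells it gave -0.70 for H2-Ab1 (adjusted p = 0.00037), -0.12 for H2-Aa (0.625) and -0.19 for Cd74 (0.291), so the sign of H2-Aa and Cd74 turned without a call. The corrected medians per cell were 1040 UMIs in Ccr7+ and 1851 in Ccr7- cDC1-marker cells for H2-Aa, and 1398 in Ccr7+ and 2573 in Ccr7- cDC1-marker cells for Cd74, at the unequal depths given above. Counts so close to the cap do not show that the RNA of H2-Aa or Cd74 was equal in the 2 sets.

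Genotype was next compared within Ccr7+ cells and within Ccr7- cDC1-marker cells. The other Ccr7- cells were not tested by genotype. Their H2-Ab1 levels were 5304, 5517, 5169, 940 and 721 CPM in Irf1_dXCR1 plates, against 696, 3485, 2220 and 932 CPM in Irf1_FF plates. In Ccr7+ cells, H2-Ab1 had 3133, 5946, 3067, 4710 and 2954 CPM in Irf1_dXCR1 plates, against 2459, 2493, 3018 and 2957 CPM in Irf1_FF plates. The groups overlapped by little, and the log2 fold change was 0.51 ± 0.20 (unadjusted p = 0.0136, adjusted p = 0.386 in edgeR). It was 1 member of 10 with an unadjusted p under 0.05, and none passed the adjusted test, where 0% of 11786 genes did and 1409 had an unadjusted p under 0.05; DESeq2 called 1.06% of genes and no member. In Ccr7- cDC1-marker cells the H2-Ab1 log2 fold change was 0.11, and H2-Oa had the lowest fold change of the members detected in every plate (-1.01, adjusted p = 0.63). None of the 10 members passed there, where 0% of 12787 genes did and 1152 had an unadjusted p under 0.05; DESeq2 called 1.44% of genes and no member. In Ccr7+ cells the cDC1-marker sums of the genotypes did not overlap, at 1228 to 2056 CPM in Irf1_dXCR1 plates and 2323 to 3817 CPM in Irf1_FF plates, and macrophage markers had medians of 488 CPM in Irf1_dXCR1 and 123 CPM in Irf1_FF plates; their part in the H2-Ab1 levels was not tested. The difference of the Ccr7 contrast between the Irf1 genotypes was tested directly for Ccr7+ against all Ccr7- cells. The other Ccr7- cells were thus included, and the contrast with Ccr7- cDC1-marker cells alone was not tested this way. This difference gave 0 called members, where 0% of 15733 genes were called and 160 had an unadjusted p under 0.05. DESeq2 called 1.32% of genes and no member for it. The value of the difference was -1.32 for H2-DMa and -0.32 for H2-Aa, both with an adjusted p of 1. With each plate left out it ran from -1.78 to -0.56 for H2-DMa, the last without Irf1_dXCR1 replicate 3, and from -0.46 to -0.19 for H2-Aa.

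In the Ikbkb experiment, Ciita had no UMI in the 8 Ccr7+ cells of the Ikbkb_FF plate, where 3 counts would be 3.36 CPM. It had 8.74, 89.2 and 154 CPM in the Ccr7+ cells of Ikbkb_dXCR1 replicates 1, 3 and 4. Replicate 2, with 4 Ccr7+ cells, was left out. EdgeR called 0 of 10 members (0.144% of all genes), and DESeq2 called Ciita higher (adjusted p = 0.0368), where it called 10.1% of genes, and 9.74% higher. In Ccr7- cDC1-marker cells no member passed in edgeR, where 0% of genes did and 423 had an unadjusted p under 0.05, or in DESeq2, which called 6.28% of genes. H2-Aa, H2-Ab1, H2-Eb1 and Cd74 had log2 fold changes of -0.60 to -0.26 in Ccr7+ cells and of -0.24 to -0.07 in Ccr7- cDC1-marker cells. The median over all tested genes was 0.90 in Ccr7+ cells and 0 in Ccr7- cDC1-marker cells.

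Of the proteases and helpers that supply class II peptides, 3 of 10 tested were higher in Ccr7+ than in Ccr7- cDC1-marker cells and 0 were lower, where 3.02% of all genes were called higher. They were Ifi30, the endosomal thiol reductase (log2 fold change 1.02, adjusted p = 0.00748), Lgmn, an asparaginyl endopeptidase (2.75, 0.00815), and Ctsz, a cathepsin (0.67, 0.0148), and the median of the list was 0.38. Lgmn had 203 to 1797 CPM in Ccr7+ cells over plates, against 0.448 to 622 CPM in Ccr7- cDC1-marker cells. Against all Ccr7- cells the cystatin Cst3 was called too (0.48, adjusted p = 0.00362), making 4 of 11 higher, where 2.74% of all genes were.

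Of the 3 listed genes of class II surface turnover 2 could be tested. Cd83, which in mice stabilises surface class II by opposing the ubiquitin ligase March1, had 1513 to 4149 CPM in Ccr7+ cells, against 749.6 to 1987 CPM in Ccr7- cDC1-marker cells, and was called higher (log2 fold change 1.21, adjusted p = 6.36e-06). March1, which ubiquitinates the class II β chain, had a median of 45.0 CPM in Ccr7+ cells, against 347 CPM in Ccr7- cDC1-marker cells (-4.04, adjusted p = 0.0786, not called). Of 13 listed factors of class II transcription 9 could be tested and 0 passed; Irf8, which the cell sets were partly defined by, had a log2 fold change of -0.39 (adjusted p = 0.0912). H2-DMb2, the neighbour of H2-DMb1, had -0.72 (0.0925). No gene of these 4 lists passed in the genotype comparisons.

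Surface MHCII protein was higher on Ccr7+ cells. Staining was recorded for 458 cells of 12 plates and is given as the inverse hyperbolic sine (arcsinh) of fluorescence, a scale close to the natural log. Plate medians averaged 10.1 ± 0.75 in Ccr7+ cells and 8.79 ± 0.65 in Ccr7- cells (SD, n = 12 plates), and were higher in Ccr7+ cells of 12 of 12 plates. The mean difference was 1.34, with a range of 0.02 to 2.23, a 3.81-fold difference in fluorescence (exact sign-flip permutation test, two-sided p = 0.000488, the smallest that 12 plates can give). Against Ccr7- cDC1-marker cells, at 8.98 ± 0.73, the mean difference was 1.15, or 3.15-fold, and Ccr7+ cells were higher in 10 of 12 plates (exact p = 0.00195). The exceptions were Irf1_FF replicate 4 (-0.34) and Ikbkb_dXCR1 replicate 3 (-0.00).

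MHCII staining did not separate the Irf1 genotypes beyond the spread between plates. Over all cells the plate medians averaged 9.02 ± 0.36 in Irf1_dXCR1 and 8.81 ± 0.80 in Irf1_FF (SD, n = 5 and 4, exact permutation test, two-sided p = 0.667, the smallest possible being 0.0159). The difference of 0.21 was 0.61 without Irf1_FF replicate 4 (exact p = 0.0714) and 0.04 without Irf1_FF replicate 2. In Ccr7+ cells they averaged 10.4 ± 0.78 in Irf1_dXCR1 and 9.68 ± 0.46 in Irf1_FF (exact p = 0.127), with 4 of the 5 Irf1_dXCR1 plates above all Irf1_FF plates. In Ccr7- cDC1-marker cells they averaged 8.85 ± 0.70 in Irf1_dXCR1 and 8.97 ± 1.09 in Irf1_FF (exact p = 0.857). The 3 stained Ikbkb_dXCR1 plates had medians of 9.77, 9.21 and 9.14 over all cells, with no stained control.

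**Figure D4:**
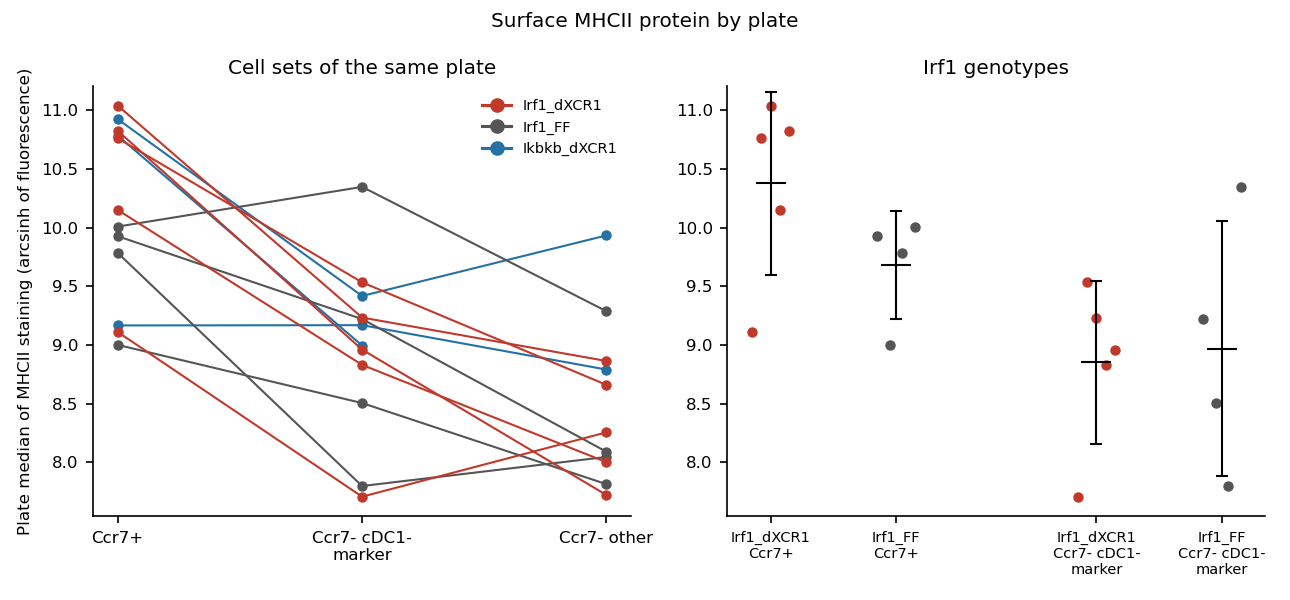
Plate medians of surface MHCII staining (arcsinh of fluorescence). Left, cell sets of the same plate joined by a line, over 12 plates (1 of which has no other Ccr7- cells); right, the Irf1 genotypes, with the mean ± SD of 5 Irf1_dXCR1 and 4 Irf1_FF plates. Ccr7+ cells lie above Ccr7- cDC1-marker cells in 10 of 12 plates.

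Cell by cell, correlations between class II RNA and the surface protein were low. Over the 458 stained cells, Spearman's rho between log2(CPM + 1) and MHCII staining was 0.16 for Cd74, 0.15 for H2-Aa, 0.13 for H2-Eb1 and 0.07 for H2-Ab1. It was -0.03 for H2-DMa, -0.08 for H2-DMb1 and 0.01 for Ciita. These cells share plates, depth and a UMI ceiling, so the values are given without a test. H2-Eb2 had the highest, at 0.17. In the 320 stained cells with cDC1 markers or Ccr7, rho was 0.05 for Cd74, 0.01 for H2-Aa, -0.02 for H2-Eb1 and -0.09 for H2-Ab1, and it was positive in 3 of 12 plates for each of the last 3. In the same cells rho was -0.20 for H2-DMa, -0.27 for H2-DMb1 and -0.15 for Ciita. It was positive in 2, 2 and 1 of 12 plates for H2-DMa, H2-DMb1 and Ciita, with plate medians of -0.37, -0.35 and -0.19. Plate medians were negative for 9 of the 10 members, among them H2-Ab1 at -0.26, H2-Ob at -0.14, H2-Eb1 at -0.13 and H2-Aa at -0.12. The share of all genes with a negative plate median was not counted. These cells pool Ccr7+ and Ccr7- cDC1-marker cells, whose staining and levels of several members differed. The part of this in the negative values was not tested. Within the Ccr7+ cells alone rho was -0.09 for H2-DMa and -0.10 for H2-DMb1, and within the Ccr7- cDC1-marker cells 0.10 for H2-DMa and -0.11 for H2-DMb1. For the other members named, rho in Ccr7+ cells was 0.05 for H2-Ab1, 0.00 for H2-Ob, 0.06 for H2-Eb1, 0.08 for H2-Aa and -0.08 for Ciita. In Ccr7- cDC1-marker cells it was -0.02 for H2-Ab1, 0.13 for H2-Ob, 0.04 for H2-Eb1, -0.05 for H2-Aa and 0.02 for Ciita. MHCII staining had a rho of 0.28 with XCR1 staining, -0.13 with forward scatter and -0.02 with UMIs per cell.

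**Figure D5:**
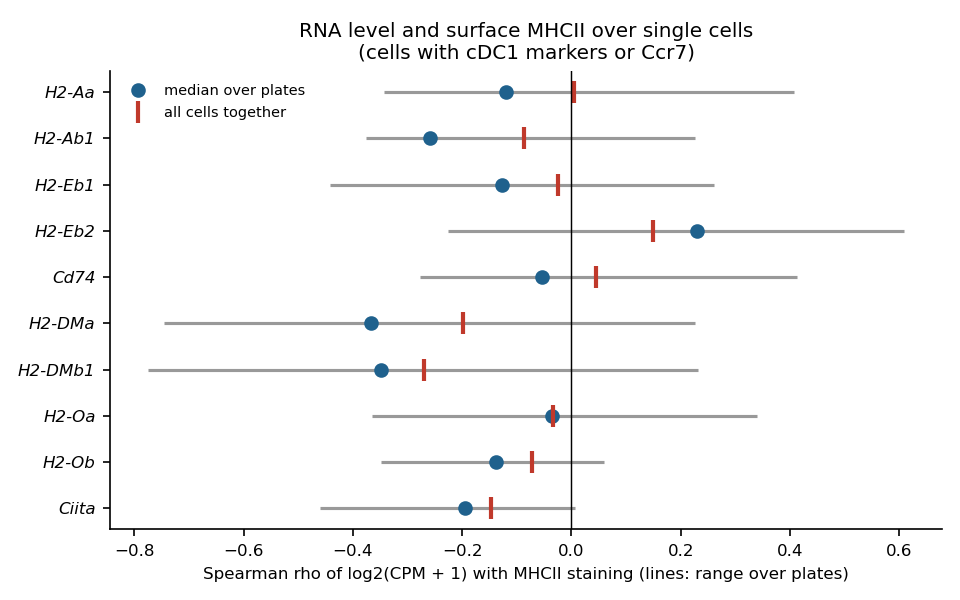
Spearman's rho between RNA level, as log2(CPM + 1), and MHCII staining over the 320 stained cells with cDC1 markers or Ccr7. Dots are medians and lines ranges over the plates (12, or 9 for H2-Eb2), and red ticks are all cells together. Of the 10 medians 9 are negative, from -0.37 for H2-DMa to -0.04 for H2-Oa, and that of H2-Eb2 is positive at 0.23.

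As a test over plates, all stained cells of each plate were divided at its median staining into MHCII-high and MHCII-low cells. These held 138 other Ccr7- cells, without which the rho given above was 0.01 for H2-Aa, -0.02 for H2-Eb1 and 0.05 for Cd74. H2-Aa had a log2 fold change of 0.37 ± 0.14 in MHCII-high over MHCII-low cells (adjusted p = 0.423), H2-Eb1 0.36 ± 0.14 (0.423) and Cd74 0.36 ± 0.13 (0.402). Their unadjusted p values were under 0.05, and none of the 9 members tested passed, where edgeR called 0.167% of 6574 genes and DESeq2 8.49% of genes and no member. H2-DMb1 had -0.48 ± 0.23 (0.719) and H2-DMa -0.27 ± 0.22 (0.96). H2-Ab1 had 0.18, H2-Oa 0.44, H2-Ob 0.39 and Ciita -0.23, and H2-Eb2 was left out by the filter on low counts. The median over the members was 0.36, against -0.16 over all genes.

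Over the 14 plates, the summed level of H2-Aa, H2-Ab1, H2-Eb1 and Cd74 ran from 9731 to 21562 CPM. Among 3817 other genes with a mean of at least 50 CPM, those most like this sum were Tmsb4x (Pearson r = 0.914 of log2(CPM + 1)), Cfl1 (0.879), Cst3 (0.871), March1 (0.848) and Clic1 (0.840). Of the remaining members, H2-DMb1 had an r of 0.778 and H2-DMa 0.723, Ciita 0.482, H2-Ob 0.462, H2-Eb2 0.208 and H2-Oa 0.120. The plates share no library, and their cell make-up, the fibroblast and macrophage transcripts above included, enters each of these values.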

How the data were processed

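The deposited table holds UMI counts, whole numbers that the authors made per gene and cell; the submitters' processing notes name bcl2fastq, STAR 2.5.3a, HTSeq 0.9.1 and GRCm38, without roles. A second deposited file gives plate, genotype, the fraction of spike-in UMIs and the sort's stainings as arcsinh, per the file headers, which for these values is close to a natural log. Plates had 2810321 to 10120557 UMIs. Library preparation used well-specific template-switch oligonucleotides, per the labels. How cells were filtered before deposit is not stated, no cell was removed and no doublet caller was run, since cells were sorted singly. Cells are not replicates: UMIs were summed per plate and cell set (at least 5 cells), kept by filterByExpr, scaled by TMM and tested with edgeR 4.0.16 quasi-likelihood in R 4.3.3 over all genes, with Benjamini-Hochberg adjustment at 0.05, two-sided. The plate, 1 tumour of 1 mouse, was the replicate, numbered in accession order; within-plate contrasts had the plate as a block, because both cell sets come from the same animal. Genotypes shared one estimate of the spread. CPM are not scaled by TMM and not divided by length. Shares have exact Clopper-Pearson intervals. Staining used exact permutation tests (scipy 1.17.1) on plate medians with at least 3 stained cells. Alternatives were DESeq2 1.42.0, other scaling, filters and cell definitions, corrected UMI collisions and each plate left out. The fits were tested on simulated data. The rule for named genes takes all 10 members in each comparison, though in some genotype comparisons a part of them stands only in the counts; of each pathway list, up to 4 genes that passed with the smallest adjusted p, or, with fewer than 2, the 2 most abundant beside any that passed. For 1 list, 1 of the genes this rule names is not reported here. The members, lists and comparisons were chosen with earlier results of these data known.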

Additional observations from a re-analysis of the deposited data

Results flagged for a closer look

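Within groups of 4 or 5 plates, 14 of 86 combinations of a class II gene or the MHCII staining with a cell set and genotype held 1 plate whose gap to its nearest neighbour exceeded Dixon's 95% critical value for the group's range; chance gives about 1 in 20. Over all cells, H2-Ab1 was 2669 CPM in Irf1_dXCR1 replicate 5, against 4402 to 4886 CPM in the other Irf1_dXCR1 plates. H2-Eb2 was 38.1 CPM in Ikbkb_dXCR1 replicate 4, against 0 to 0.278 CPM in the others, and H2-DMa was 2246 CPM in Ikbkb_dXCR1 replicate 2, against 1211 to 1354 CPM. MHCII staining over all cells was lowest in Irf1_dXCR1 replicate 1, at 8.38, against 9.07 to 9.27.

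In Ccr7+ cells, H2-DMb1 was 0 CPM in Irf1_dXCR1 replicate 3, against 624 to 661 CPM in the other Irf1_dXCR1 plates. In Ccr7- cDC1-marker cells, Ikbkb_dXCR1 replicate 2 stood apart in H2-Aa at 5431 CPM (the others 3579 to 3614), H2-Ab1 at 6022 CPM (3844 to 4118) and H2-Eb1 at 4979 CPM (3260 to 3464). H2-Eb2 was flagged there too, at 0.334 CPM (0), but this is a level near the floor, flagged only because the others were at 0. The same cells of Irf1_dXCR1 plates had H2-Aa at 3444 CPM in replicate 2 (4297 to 4576), H2-Ob at 691 CPM in replicate 3 (400.3 to 476) and Ciita at 197 CPM in replicate 1 (359 to 415). In Irf1_FF plates they had H2-Eb2 at 14.3 CPM in replicate 4 (0 to 0.610) and H2-DMb1 at 1257 CPM in replicate 2 (1744 to 1822). The causes were not tested.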

How the results depend on the processing

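The count of class II genes called in Ccr7+ against all Ccr7- cells, 0 in edgeR with all plates, was 6 with DESeq2, 2 with no filter on low counts (H2-Ab1 lower, H2-Eb2 higher), 1 with UMI collisions corrected, 5 with at least 10 Ccr7 UMIs, 6 with Ccr7 and Fscn1 against neither, 2 with at least 10 cells of each kind, and 0 to 2 with each plate left out. There H2-Eb1, at 0.00 with all Ccr7+ cells, reversed to -0.49 (adjusted p = 0.0189) with Ccr7 and Fscn1. Against Ccr7- cDC1-marker cells the count of 2 was 6 with DESeq2, 1 with upper-quartile factors, 0 with no filter, 1 with cells under 500 genes left out, 5 with at least 10 Ccr7 UMIs, 7 with Ccr7 and Fscn1, 1 with at least 5 cDC1 markers (an alternative chosen after seeing the data), and 0 to 2 with each plate left out. With no plate block it was 3: H2-Ab1 was lost (adjusted p = 0.214), H2-DMa and H2-DMb1 were gained (0.0351 and 0.0249), and H2-Ob was kept. In Ikbkb_dXCR1 against Ikbkb_FF Ccr7+ cells DESeq2 called 1 member, against 0 in edgeR.

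Counts over all genes changed by over 1.5 times with DESeq2 in each comparison. It called 100 genes for Irf1_dXCR1 and 1180 for Ikbkb_dXCR1 over all cells, 125 and 1188 in Ccr7+ cells, 184 and 803 in Ccr7- cDC1-marker cells, 207 for the difference of contrasts, 2396 for Ccr7+ against Ccr7- cells (15.4% higher, against 39.9% in edgeR), 1809 against Ccr7- cDC1-marker cells (23.4% higher, against 55.4%) and 558 for MHCII-high cells, where 11 became 31 with upper-quartile factors, 75 with no filter, 44 with collisions corrected, 18 with no plate block, and 0 with cells under 500 genes left out, tertiles, cells with cDC1 markers or Ccr7, or without both Irf1_FF replicate 1 and Irf1_dXCR1 replicate 2 (chosen after seeing the data), and 0 to 59 with each plate left out. In Irf1_dXCR1 Ccr7+ cells upper-quartile factors called 71 genes and shifted the all-gene median to 0.70 and the members' to 2.00, with 0 members called. The 434 genes of Ccr7+ against Ccr7- cells were 214 with no block, 1124 with at least 10 Ccr7 UMIs and 969 with Fscn1, and the 303 against Ccr7- cDC1-marker cells were 721 with either. The 17 genes of Ikbkb Ccr7+ cells were 0 with upper-quartile factors, 43 with no filter, 52 without those 2 plates, and 16 to 38 with each plate left out.

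Staining differences kept their direction and side of the threshold: 0.04 to 0.61 for Irf1_dXCR1 against Irf1_FF plates (0.21 with all), 1.26 to 1.46 for Ccr7+ against Ccr7- cells and 1.07 to 1.28 against Ccr7- cDC1-marker cells with each plate left out, and 1.07 and 0.926 with plate means. The interaction could not be fitted with upper-quartile factors, and no Ikbkb comparison can leave out its only control plate. Of 2115 recomputed values of single members, 28 lost and 42 gained a call, and 145 changed sign without a call. Sets of 5 to 10 cells per plate limit the genes detected in few cells (H2-Eb2, H2-Oa, Ciita), and counts near the cap of the UMI understate H2-Aa, H2-Ab1, H2-Eb1 and Cd74.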
